A study of Homo sapiens with 12 samples.

Results

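The mucosal oxidases and their partners were followed through 4 conditions of the human colonic epithelial cell line NCM460: the dual oxidases DUOX1 and DUOX2, their maturation factors DUOXA1 and DUOXA2, the NADPH oxidase NOX1 with its organizer NOXO1 and its membrane partner CYBA, the inducible nitric oxide synthase NOS2, and the superoxide dismutases SOD1 and SOD2. These 10 genes were chosen by name and occupied 11 of the 58735 rows of the deposited table, because SOD2 has 2 rows. Expression had been measured by RNA-seq of poly(A)-selected RNA and deposited as FPKM, reads scaled for gene length and sequencing depth. The 4 groups of 3 libraries were wild-type cells in medium, wild-type cells with TNF-α, wild-type cells with TNF-α and 5-OH-TMT (5-hydroxy-N,N,N-trimethyltryptamine, named Bufotenidine in the labels), and TNF-α-treated cells labelled HTRA2 knockdown. The labels give no dose or time. They do not state whether the knockdown libraries came from 1 siRNA or several, nor whether the TNF-α controls received a control siRNA, so that transfection and loss of HTRA2 cannot be told apart. Nothing states that the 3 libraries of a group came from separate cultures, and the p-values then measure only the spread between these libraries.

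NADPH oxidases pass electrons from NADPH across a membrane to oxygen. NOX1, the form known from colonic epithelium, releases superoxide and works with CYBA (p22phox), NOXO1 and NOXA1, whereas DUOX1 and DUOX2 release hydrogen peroxide and need DUOXA1 and DUOXA2 to leave the endoplasmic reticulum. Superoxide dismutases turn superoxide into hydrogen peroxide, SOD1 in the cytosol with copper and zinc and SOD2 in the mitochondrial matrix with manganese, and NOS2 makes nitric oxide from arginine. DUOX2, DUOXA2, NOS2 and SOD2 are known as genes that inflammatory signals can switch on in gut epithelium.

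Between 31008429 and 37624399 reads per library were recovered on genes from the FPKM. HTRA2, the targeted gene, was at 14.5 ± 0.774 FPKM (SD, n = 3) with TNF-α and at 7.28 ± 0.137 in the knockdown, 50.2% of the TNF-α mean, and no knockdown library overlapped a TNF-α library. The epithelial label was carried by KRT8, KRT18, EPCAM, CDH1 and KRT19, and the other 7 of 12 colon epithelium markers were under 0.1 FPKM in mean in every group. CDX2, which defines intestinal identity, was at 0 in all 12 libraries and VIL1 had at most 2 reads, while 6 of 6 squamous epithelium markers, KRT5 and KRT14 among them, were above 0.1 FPKM in mean. The mitochondrial genome took between 2.95% and 4.68% of the reads, and the lowest share was that of knockdown replicate 2.

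Promoter sequence is shown for SOD2, CYBA and DUOXA1, the tested members called higher in the knockdown than with TNF-α at an adjusted p under 0.05 by limma. It covers the stretch of the 250 bases upstream of a RefSeq start (GRCh38.p14) that lies outside every annotated exon. For SOD2, 2 of 4 starts had such a stretch, chr6:159693329-159693491, 250 to 88 bases upstream of the start at 159693241, and chr6:159727385-159727499, 115 to 1 bases upstream of the start at 159727384. For CYBA it was chr16:88651153-88651303, 250 to 100 bases upstream of the start at 88651053. For DUOXA1 it was chr15:45123044-45123293, the whole 250 bases upstream of the start at 45123043, and its other start, at 45129879, left only 31 bases, which are not shown and held none of the motifs. All are on the minus strand. Capitals mark GC boxes, GGGCGG on either strand, and the NF-κB decamer, named here without its letters.
SOD2, start 159693241: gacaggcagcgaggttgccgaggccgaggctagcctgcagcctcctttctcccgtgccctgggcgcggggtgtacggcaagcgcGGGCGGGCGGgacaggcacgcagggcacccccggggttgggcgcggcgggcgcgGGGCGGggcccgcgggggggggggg
SOD2, start 159727384: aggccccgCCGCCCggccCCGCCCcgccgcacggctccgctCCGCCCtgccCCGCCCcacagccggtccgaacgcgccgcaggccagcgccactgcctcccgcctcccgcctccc
CYBA: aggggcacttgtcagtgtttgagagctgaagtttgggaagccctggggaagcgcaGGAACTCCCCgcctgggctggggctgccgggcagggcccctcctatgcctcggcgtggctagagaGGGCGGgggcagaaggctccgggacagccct
DUOXA1: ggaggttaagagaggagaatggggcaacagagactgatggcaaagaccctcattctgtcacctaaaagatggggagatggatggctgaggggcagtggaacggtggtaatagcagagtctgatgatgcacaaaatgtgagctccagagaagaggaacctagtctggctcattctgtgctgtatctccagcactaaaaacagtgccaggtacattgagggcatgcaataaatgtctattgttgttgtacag
The first SOD2 stretch held 3 GC boxes, of which the first pair overlap, and the second held 4, and neither held an NF-κB decamer. The CYBA stretch held 1 GC box and 1 NF-κB decamer, the only capitals that are not a GC box. The DUOXA1 stretch held neither. Over the same positions of 35116 starts, a GC box was in 28.2% and 33.4% for the 2 SOD2 windows, 26.0% for CYBA and 42.6% for DUOXA1, and an NF-κB decamer was in 6.44%, 4.78%, 5.93% and 9.96%. The interferon element TTCNNNGAA, which reads the same on both strands, was in none of the 4 stretches and was in 2.65% to 6.57% of the starts. These matches describe letters only, and the absence of one says nothing of a factor's binding elsewhere.

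The question of the first comparison was which of these genes TNF-α, an inflammatory cytokine, moved in wild-type cells. SOD2 (ENSG00000112096, minus strand of chromosome 6 from 159669057 to 159745186, hg38) rose 5.89-fold, as a ratio of mean FPKM. Its 3 medium libraries were at 1.88, 1.44 and 1.79 FPKM, and its TNF-α libraries were at 9.68, 8.67 and 11.8 FPKM. Every TNF-α library was above every medium library. The fitted change on the log2(FPKM + 0.1) scale was 2.49 ± 0.20 (SE), with an adjusted p of 1.18e-05 by limma, and by the size of its rise it ranked 32 of the 18079 genes tested. The exact permutation test of 3 libraries against 3 gave p = 0.1, the smallest it allows.

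SOD1, the cytosolic enzyme of the same reaction, stood at 64.9 ± 0.971 FPKM (SD, n = 3) in medium and 62.5 ± 4.85 with TNF-α. The log2 difference was -0.06, with a 95% interval from -0.21 to 0.09 and an adjusted p of 0.79. The SOD2 mean was therefore far below that of SOD1 in both groups on the FPKM scale, but that scale divides the SOD2 reads by a merged exon length of 16493 bases, while its annotated transcripts run from 454 to 14266 bases. How reads shared with the second SOD2 row (ENSG00000285441) were counted is not given in the sources used here. The rows share 845 exon bases, which is 5.12% of the first row's exons but 85.4% of the 990 bases of transcript SOD2-203. The second row had at most 3 reads in any library.

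DUOXA1 (ENSG00000140254, minus strand of chromosome 15 from 45117367 to 45129938) was low in medium and lower with TNF-α. The medium libraries held 28, 16 and 25 recovered reads, and the TNF-α libraries held 4, 6 and 7. The groups did not overlap, and the TNF-α mean of 0.0438 FPKM was 23.6% of the medium mean of 0.186. The fitted log2 difference was -0.98 ± 0.32 (SE), with an unadjusted p of 0.0098 and an adjusted p of 0.135, so that it did not pass the test. It passed with voom on the recovered reads (-2.02, adjusted p = 0.038) and without the variance trend (adjusted p = 0.031), over a range from 0.031 to 0.286 for all its alternatives.

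Neither CYBA nor DUOX1 passed the test with TNF-α. CYBA was at 1.43, 2.58 and 1.42 FPKM in medium and at 2.04, 1.70 and 1.85 with TNF-α, so that medium replicate 2 exceeded every TNF-α library while the other two lay below them. Its log2 difference was 0.09 (95% interval -0.32 to 0.49), and -0.05 without medium replicate 1 or without medium replicate 3. DUOX1 (ENSG00000137857), the dual oxidase with the most reads here, was at 0.917, 0.855 and 0.732 FPKM in medium and at 0.819, 0.741 and 0.687 with TNF-α, and these ranges overlapped. Of the 5 members tested, 1 was called at an adjusted p under 0.05, against 4.1% of all genes tested. By the study's rule for a differentially expressed gene (DEG), a fold of 2 or more and an unadjusted p no higher than 0.05, 1 was called, against 2.73% of all genes. The fold of this count is the fitted one on the log2(FPKM + 0.1) scale, which understates the change of low genes. DUOXA1 missed it at -0.98 on that scale, while its ratio of mean FPKM and its fitted values with a pseudocount of 0.01 (-1.86) and with voom (-2.02) were past a fold of 2.

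**Figure D1:**
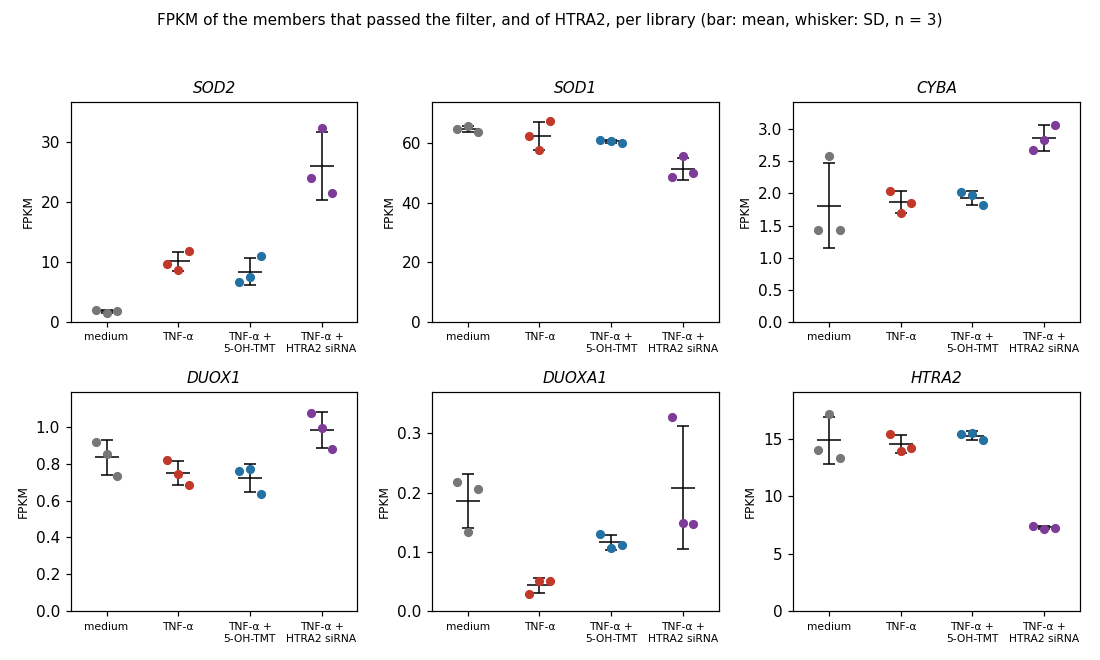
FPKM (linear axes from 0, each gene on its own scale) of SOD2, SOD1, CYBA, DUOX1, DUOXA1 and the targeted gene HTRA2 in each of the 12 libraries, with 1 point per library, a bar at the mean and whiskers of 1 SD (n = 3). SOD2 lies between 1.44 and 1.88 in medium, between 6.60 and 11.8 in both TNF-α groups of wild-type cells and between 21.5 and 32.3 in the knockdown.

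The next comparison asked whether 5-OH-TMT moved these genes in cells that also received TNF-α. None of the 5 members tested passed at an adjusted p under 0.05 by limma, none had an unadjusted p under 0.05, and none was a DEG or was called with voom. Across all genes, 0.0387% passed at the adjusted threshold and 1.5% were DEGs. SOD2 stood at 6.60, 7.49 and 10.98 FPKM with 5-OH-TMT. These values overlapped the TNF-α libraries, and all 3 were above the medium libraries. The log2 difference from TNF-α was -0.28 ± 0.20 (SE), with a 95% interval from -0.72 to 0.15 and an adjusted p of 0.438, so that a fall of this interval's size or no change could not be told apart.

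SOD1 differed from TNF-α by -0.04 on the log2 scale (95% interval -0.19 to 0.11), CYBA by 0.06 (-0.35 to 0.46) and DUOX1 by -0.05 (-0.37 to 0.27). DUOXA1 had 17, 14 and 15 reads with 5-OH-TMT. Each exceeded the 4 to 7 reads of the TNF-α libraries, and at 0.116 ± 0.0125 FPKM (SD, n = 3) the mean lay below that of medium. Its log2 difference from TNF-α was 0.59 (95% interval -0.11 to 1.28, adjusted p = 0.325). The exact permutation test gave p = 0.1 for this difference, again the smallest possible.

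In the third comparison, TNF-α-treated cells with HTRA2 knocked down were set against TNF-α-treated wild-type cells. SOD2 rose further, CYBA and DUOXA1 rose, and SOD1 fell. These 4 calls among the 5 members tested stand beside 17.4% of all genes called at the adjusted threshold, and the 2 DEGs among them, SOD2 and DUOXA1, beside 4.23%. In a fit to the genes with a mean of at least 1 FPKM, SOD2, SOD1 and CYBA were called, beside 27.9% of genes. The median log2 difference was 0.60 over the 5 members tested and -0.0034 over all genes tested.

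SOD2 held 23.9, 32.3 and 21.5 FPKM in the knockdown, from 14215, 19234 and 12939 reads. Every knockdown library was above every other library of the series, and the highest was replicate 2. The mean was 2.58 times that of TNF-α and 15.2 times that of medium. The log2 difference from TNF-α was 1.35 ± 0.20 (SE), with an adjusted p of 7.2e-04, and by the size of its rise it ranked 369 of the 18079 genes. Without knockdown replicate 2, which had the lowest mitochondrial share, it was 1.18 with an adjusted p of 0.0025. In level, the order of SOD2 was medium, then 5-OH-TMT and TNF-α, which did not differ beyond their spread, then the knockdown.

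SOD1 moved the other way. It was at 62.4, 57.8 and 67.4 FPKM with TNF-α and at 48.7, 55.7 and 50.0 FPKM in the knockdown. All knockdown libraries were lower than all libraries of the other groups, and their mean was 82.3% of the TNF-α mean. The log2 difference was -0.28 ± 0.07 (SE), with an adjusted p of 0.0149. This call was lost when only the TNF-α and knockdown libraries were fitted (adjusted p = 0.079), without TNF-α replicate 3 (0.060) and without knockdown replicate 1 (0.068), over a range from 0.0048 to 0.079 for all its alternatives.

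CYBA (ENSG00000051523, minus strand of chromosome 16 from 88643283 to 88651152), the membrane subunit that stabilizes NOX1, was at 2.68, 2.83 and 3.07 FPKM in the knockdown. All 3 libraries were above all 9 others. The log2 difference from TNF-α was 0.60 ± 0.19 (SE), with an adjusted p of 0.0456 that lies close to the threshold. It was over the threshold when any 1 of the 6 libraries was left out, where it ran from 0.068 to 0.141, and without a filter on low genes (0.092), without the variance trend (0.069) and with the replicate number as a term (0.066).

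DUOXA1 in the knockdown had 44, 20 and 20 reads. Replicate 1 stood above the other two, which lay within the range of medium, and all 3 exceeded the TNF-α libraries. The log2 difference from TNF-α was 1.05 ± 0.32 (SE), with an adjusted p of 0.040, and 0.79 with an adjusted p of 0.15 without knockdown replicate 1. The call was also lost without any 1 of the TNF-α libraries (0.072 to 0.098), with a pseudocount of 1 (0.067), with the replicate number as a term (0.063) and when no other group was fitted (0.081). Against medium, the knockdown differed by 0.07 (95% interval -0.62 to 0.77). DUOXA1 and DUOXA2 share 706 exon bases on opposite strands, 19.0% of the exon bases of DUOXA1, and the sources used here do not say if the counting kept strands apart.

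DUOX1, which lies head to head with DUOXA1, had 1.07, 0.994 and 0.878 FPKM in the knockdown. These values were above all TNF-α and 5-OH-TMT libraries but overlapped medium. The log2 difference from TNF-α was 0.35 (95% interval 0.03 to 0.67), with an unadjusted p of 0.034 and an adjusted p of 0.125, and it did not pass the test.

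**Figure D2:**
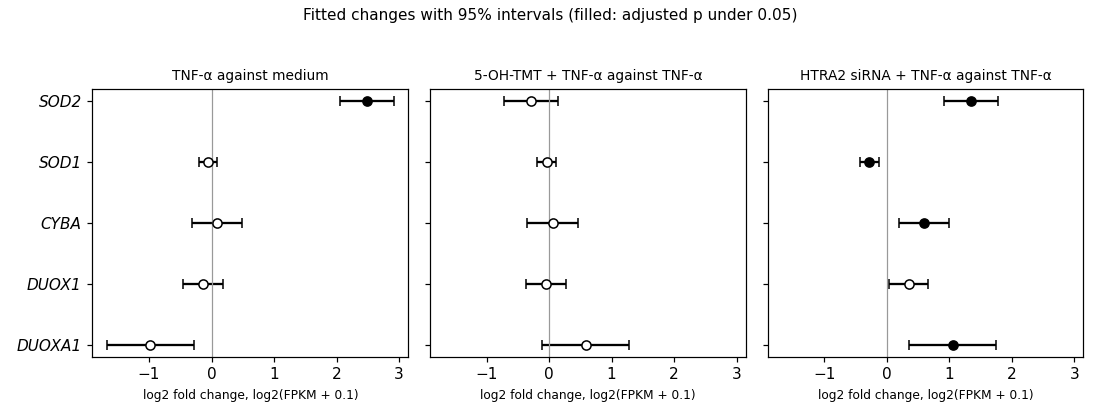
Fitted log2 fold changes (x axis, on the log2(FPKM + 0.1) scale) of the 5 members tested, with 95% intervals from limma, in the 3 comparisons; filled points have an adjusted p under 0.05. SOD2 is filled with TNF-α (2.49) and in the knockdown (1.35), no point is filled with 5-OH-TMT, and SOD1 in the knockdown is the only filled point below 0.

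The knockdown and 5-OH-TMT groups, both given TNF-α, were also compared directly. SOD2 was higher in the knockdown by 1.63 ± 0.20 (SE) on the log2 scale, with an adjusted p of 3.6e-04, and SOD1 was lower by 0.24 (log2 difference -0.24, adjusted p = 0.035). CYBA differed by 0.54 with an adjusted p of 0.071, DUOX1 by 0.40 with 0.088, and DUOXA1 by 0.46 with 0.364, and these 3 did not pass. In this comparison 15.3% of all genes were called.

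The other 5 members were below the filter of 0.1 FPKM in mean over the 12 libraries, and their reads are given in place of a fold. DUOX2 (ENSG00000140279), the dual oxidase known for its induction in inflamed gut, had 6, 8 and 2 reads in medium, and 6, 0 and 1 under TNF-α. Those given 5-OH-TMT as well had 13, 5 and 8. The knockdown libraries held 23, 19 and 27 reads, more than any of the other 9. In sum this was 69 reads in the knockdown and 7 with TNF-α. In a fit without the filter, over 31951 genes, 8.23% of genes were called in the knockdown against TNF-α. There the DUOX2 log2 difference from TNF-α was 0.63 ± 0.13 (SE), with an adjusted p of 0.0127. Its size depended on the pseudocount, from 0.08 with 1 to 2.30 with 0.01, where the adjusted p was 0.054, and it was 3.76 with voom on the reads (adjusted p = 0.0021). The range over all its alternatives was from 0.0021 to 0.054. The knockdown mean, 0.0646 ± 0.0109 FPKM (SD, n = 3), was below the filter all the same.

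The partner of DUOX2 was not seen with it. DUOXA2, which adjoins DUOX2 head to head, had no read in any medium library, 1 TNF-α library with 4 reads, 1 read in 1 of the 5-OH-TMT libraries, and 1, 0 and 2 reads in the knockdown. Only 1 of the 12 libraries was above 3 reads, the floor used here for a gene to count as seen. DUOXA1 on the opposite strand overlaps 27.6% of the exon bases of DUOXA2, and how reads there were counted is not given.

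NOX1, the colonic superoxide source, had 0, 4 and 1 reads in medium, and 4, 5 and 1 under TNF-α. It had 11, 5 and 0 reads with 5-OH-TMT added, and 5, 0 and 2 after knockdown. The groups overlapped in every comparison, and in the fit without the filter no log2 difference from TNF-α exceeded its error (-0.15 ± 0.30 (SE) in the knockdown). NOXO1, which organizes the NOX1 complex, had at most 3 reads in any library and none in the knockdown. In addition 98.8% of its exon bases are overlapped by TBL3 on the opposite strand. Without strand, even these reads cannot be assigned, and their low number need not mean low expression.

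NOS2 (ENSG00000007171) had no read in medium or with TNF-α. With 5-OH-TMT the libraries held 0, 2 and 0 reads, and in the knockdown 0, 2 and 4. A difference was not detectable at this depth, where 3 reads stand for 0.0805 to 0.0962 FPKM in a transcript of 1 kb and proportionally less in a longer one. These limits cover counting error only. In bulk RNA, fewer expressing cells and less RNA per cell cannot be told apart.

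**Figure D3:**
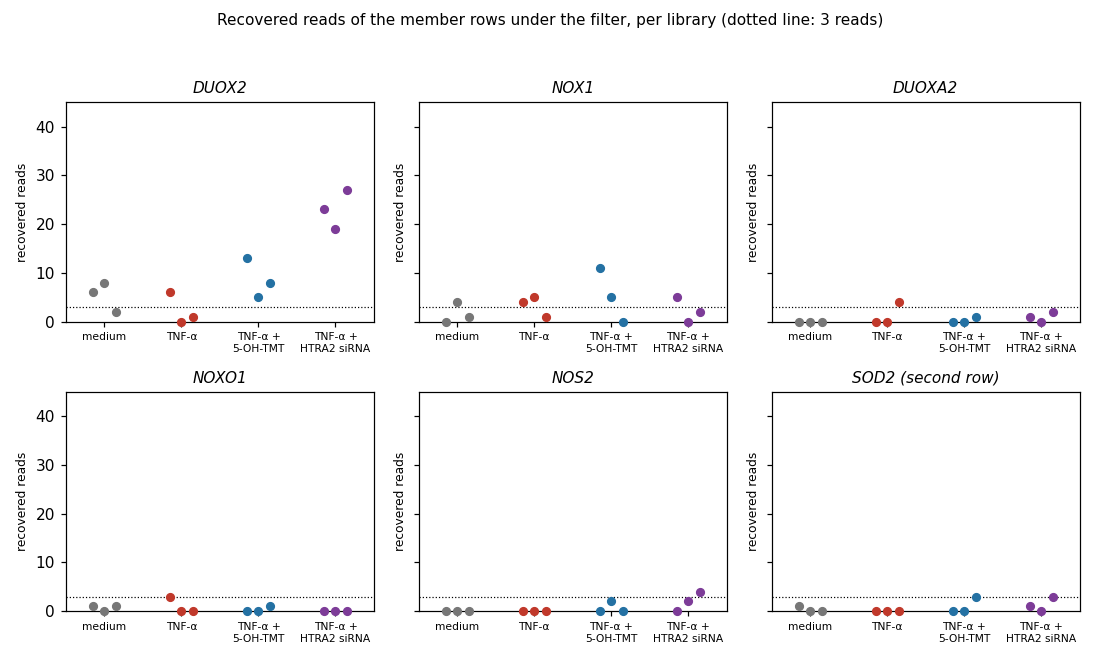
Recovered reads (y axis, linear and shared) of the 6 member rows below the filter in each of the 12 libraries, 1 point per library, with a dotted line at the floor of 3 reads. DUOX2 reaches 19 to 27 reads in the knockdown and at most 13 elsewhere, while DUOXA2, NOXO1, NOS2 and the second SOD2 row stay at 4 reads or fewer.

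The rest of the oxidase machinery was read from 10 other NADPH oxidase genes, of which 6 passed the filter. With TNF-α none of the 6 was called by limma or by voom, and 1 was higher at an unadjusted p under 0.05. With 5-OH-TMT again none was called by either, although 4 had an unadjusted p under 0.05, all higher. The share of all genes with an unadjusted p under 0.05 was not counted, for this or any other list. In the knockdown 2 of the 6 rose and none fell (3 with voom), beside 17.4% of all genes called (20.4% with voom). The median log2 difference was 0.17 over the 6.

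Those risers were NOXA1 and NCF4. NOXA1, the activator that works with NOX1 and NOXO1, went from 3.52 ± 0.333 FPKM to 7.11 ± 0.858 (log2 change 0.99, adjusted p = 9.0e-04), although the NOX1 row itself held at most 5 reads in these libraries. NCF4 (p40phox), a subunit of the phagocyte oxidase, reached 0.817 ± 0.0817 FPKM from 0.426 ± 0.109 (0.82, adjusted p = 0.0116), with an adjusted p of up to 0.052 in its alternatives. CYBB, the catalytic subunit that NCF4 serves in phagocytes, had at most 4 reads in any library and none in the knockdown.

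Some markers of other cell types moved with TNF-α and in the knockdown, and colon epithelium markers also moved in the knockdown. Of the 5 colon epithelium markers tested, none was called with TNF-α by limma. In the knockdown 2 were called higher and 3 were not called, beside 17.4% of all genes called. The 2 were CDH1, from a mean of 64.2 to 84.8 FPKM, and KRT19, from 2.11 to 3.69. Of the 7 leukocyte markers 2 passed the filter, CD14 and CSF1R. The summed level of the list was 0.606 to 0.850 FPKM in medium, 0.332 to 0.407 with TNF-α, 0.623 to 0.710 when 5-OH-TMT was added and 0.906 to 1.51 in the knockdown. Both CD14 and CSF1R were lower with TNF-α at an unadjusted p under 0.05, though neither was called. Both were called higher in the knockdown than with TNF-α, where 17.4% of all genes were called. ITGAM, below the filter, went the other way with TNF-α, from 0 reads in every medium library to 14, 13 and 10. In the knockdown it had 13, 19 and 30. CD14 in the knockdown, at 0.443 FPKM in mean, was near its medium mean of 0.397, whereas CSF1R, at 0.604, was above its medium mean of 0.328. CD3E and FCGR3B were at 0 in all libraries and PTPRC, the pan-leukocyte marker, had at most 4 reads in any library and at most 1 in the knockdown.

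Of the 7 fibroblast and endothelium markers 3 passed. Their summed level was 1.61 to 1.63 FPKM in medium, 2.57 to 2.80 with TNF-α, 2.92 to 3.47 when 5-OH-TMT was added and 4.81 to 6.83 in the knockdown, with DCN at 0 throughout. CDH5 was called higher with TNF-α, from a mean of 0.335 to 1.32 FPKM, beside 4.1% of all genes called. CDH5 and COL1A1 were called higher in the knockdown than with TNF-α, beside 17.4% of all genes. Of the 6 squamous markers none was called with TNF-α by limma (1 was higher at an unadjusted p under 0.05). In the knockdown 3 of them rose and 1 fell, beside the same 17.4% of all genes. The part of these markers in the results for SOD2, GPX3 and GCH1 with TNF-α, and for the members, NCF4 and NOXA1 in the knockdown, was not tested.

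Among the 23 genes of peroxide removal and SOD partners, 21 passed the filter. With TNF-α 1 of the 21 was called, beside 4.1% of all genes called. It was GPX3, the secreted glutathione peroxidase, which rose from 6, 5 and 2 reads in medium to 81, 79 and 25. Its log2 change was 2.12, with an adjusted p of 0.0039 and a size that ran from 0.57 to 3.49 over its alternatives (adjusted p up to 0.081). With 5-OH-TMT none of the 21 was called by limma, while 5 were higher and 2 lower at an unadjusted p under 0.05. Voom called 2 as higher, GPX4 and PRDX5, beside 1.31% of all genes called by voom. In the knockdown 3 of the 21 rose and 4 fell (4 and 4 with voom), beside 17.4% of all genes called (20.4% with voom). In a fit to the genes with a mean of at least 1 FPKM, 27.9% of genes were called. The median log2 difference over the 21 was -0.06.

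Of these, PRDX1, an abundant cytosolic peroxiredoxin, fell from 293 ± 7.85 FPKM to 214 ± 13.9 (log2 change -0.46, adjusted p = 7.1e-04). PRDX3 is a mitochondrial peroxiredoxin, 1 of those that remove peroxide in the same compartment as SOD2. It fell from 60.0 ± 3.64 to 50.8 ± 2.16 FPKM (-0.24, adjusted p = 0.022). That call held in 2 of 6 fits with a library left out, with an adjusted p of up to 0.084 in all its alternatives. TXN, the thioredoxin that recharges peroxiredoxins, differed by -0.32 (adjusted p = 0.040), and this call held in 1 of 6 fits with a library left out. PRDX5 rose from 240 ± 10.02 to 327 ± 6.15 FPKM (0.45, adjusted p = 0.0019), and GLRX, a glutaredoxin, rose from 1.49 ± 0.0644 to 2.55 ± 0.313 FPKM (0.73, adjusted p = 8.0e-04).

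Of the 16 genes of nitric oxide and arginine metabolism, 13 passed. With TNF-α 1 of the 13 was called, beside 4.1% of all genes called. It was GCH1, the first enzyme in the synthesis of the cofactor of nitric oxide synthases. GCH1 rose from 3.34 ± 0.584 to 5.36 ± 1.10 FPKM (0.66, adjusted p = 0.040). That call held in 2 of 6 fits with a library left out. With 5-OH-TMT none of the 13 was called by limma, while 2 were higher and none lower at an unadjusted p under 0.05. Voom called 1 as higher, ASS1, beside 1.31% of all genes called by voom. Voom also called ASS1 higher with TNF-α, together with GCH1, where it called 4.77% of all genes. In the knockdown limma called 1 of the 13 higher and 1 lower, a share near the 17.4% of all genes called. Voom called 2 higher and 2 lower, beside 20.4% of all genes called by voom. ASS1, which makes the precursor from which arginine is rebuilt, rose from 91.1 ± 8.31 to 165 ± 16.8 FPKM (0.86, adjusted p = 9.8e-05).

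DDAH1, which breaks down methylated arginines, differed by -0.36 (adjusted p = 0.041), a call that was lost in 6 of 6 fits with a library left out. ASS1 has processed pseudogenes, and how reads shared with them were counted is not given. Of the 5 haem peroxidases 3 passed, none was called with TNF-α or 5-OH-TMT by limma or voom (nor had an unadjusted p under 0.05), and PXDN (peroxidasin) rose in the knockdown from 16.3 ± 1.53 to 22.5 ± 2.09 FPKM (0.47, adjusted p = 0.0032).

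**Figure D4:**
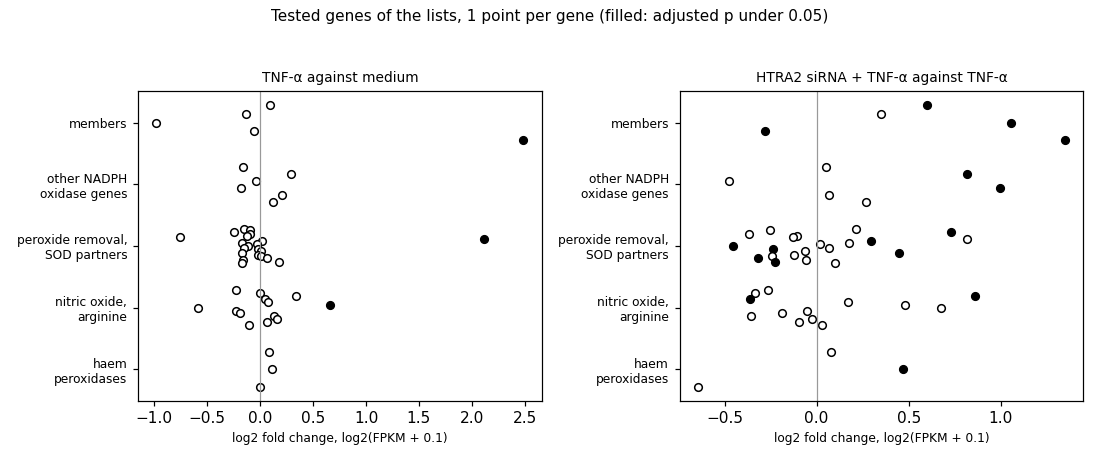
Fitted log2 fold changes (x axis, on the log2(FPKM + 0.1) scale) of the genes tested in each list, 1 point per gene, with TNF-α against medium on the left and the knockdown against TNF-α on the right; filled points have an adjusted p under 0.05. With TNF-α the members, the peroxide genes and the nitric oxide genes hold 1 filled point each, and in the knockdown filled points lie on both sides of 0 among the members, the peroxide genes and the nitric oxide genes.

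The genes most like each member with a mean of at least 1 FPKM were found by Pearson's r of log2(FPKM + 0.1) over the 12 libraries, among 11185 genes. These values describe the pattern over libraries that share their groups, and carry no test. For SOD2 they were KYNU (kynureninase), OPTN (optineurin) and CXCL8 (a neutrophil chemokine), with r of 0.994, 0.994 and 0.992. CXCL8 went from a mean of 0.693 FPKM in medium to 9.32 with TNF-α, to 8.47 when 5-OH-TMT was added and to 36.8 in the knockdown. For SOD1 they were SNHG5, MRPS6 and POP4 (r = 0.964, 0.955 and 0.950), each lowest in the knockdown. For CYBA they were FBXO7, RAPGEF3 and SPHK1 (r = 0.935, 0.918 and 0.917), each highest there.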

How the data were processed

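RNA of NCM460 cells was sequenced in 12 libraries, 3 per group, from poly(A)-selected RNA. The authors deposited FPKM values for every gene in every library, in 1 table that also lists gene lengths. The submitters' processing notes name CASAVA 1.8, HISAT2 2.0.4, HTSeq 0.9.1 and hg38, without their roles, and the strandedness and the scaling of the FPKM are not given in the sources used here. Of the gene coordinates, 99.9% were those of GENCODE 29.

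Whole reads were recovered from FPKM, length and each library's smallest step, and at least 99.96% of the values lay within 0.05 of a whole number. In R 4.3.3 with limma 3.58.1, log2(FPKM + 0.1) was modelled by group means for 18079 genes whose mean FPKM reached 0.1, by eBayes with trend and 8 residual degrees of freedom. P-values were two-sided and adjusted by Benjamini-Hochberg over all genes tested. Members below the filter came from a fit to the 31951 genes above 0 in at least 1 library. Exact two-sided permutation tests of 3 libraries against 3 cannot go below p = 0.1. The fit was tested on simulated data. The floor was 3 reads.

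Named are the members, HTRA2, up to 5 genes per list and comparison with the lowest adjusted p under 0.05, and the 3 genes most like each member with a mean FPKM of at least 1. Marker genes, CYBB and TBL3 were named after their values were seen. The members and lists were chosen with earlier results of these data known. The comparisons share the TNF-α libraries. The alternatives were pseudocounts of 1 and 0.01, no filter or a filter at 1 FPKM, median-of-ratios scaling, voom on recovered reads, eBayes without trend, only the groups compared, the replicate number as a term, and each library left out. SOD1, NOS2 and proteins have no sequence shown. Some genes of the lists are not reported here and were left out of the lists' counts.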

Additional observations from a re-analysis of the deposited data

How the results depend on the processing

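Of the 5 members tested, the number called with TNF-α was 1 under 7 of the 9 alternatives that keep all libraries, and 2 (SOD2 and DUOXA1) with voom on the recovered reads and with eBayes without trend. With 5-OH-TMT it was 0 under every alternative. In the knockdown it was 4, and 2 with only the TNF-α and knockdown libraries fitted. With 1 library left out it ran from 1 to 3 (1 without TNF-α replicate 3 and without knockdown replicate 1). Counts without a filter are over all 10 members. In the knockdown 4 of these 10 were called, with DUOX2 and without CYBA, beside 8.23% of all genes in that fit. No pairing of the libraries by replicate number was seen, though a weak shared effect could be missed in this way. Over 18 same-numbered pairs the correlation of deviations from the group means ran from -0.366 to 0.151, 5 of them over 0.1. Pairs of different numbers ran from -0.21 to 0.347, and 3 of 12 libraries correlated best with their own number. With the replicate block, 2 members were called in the knockdown, SOD2 and SOD1, and 2660 genes in all against 3152.

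SOD2 kept its direction and its side of the threshold under all alternatives with TNF-α (log2 change 2.02 to 2.59) and in the knockdown (1.18 to 1.47). Log2 differences of members that were not called crossed 0 with a library left out: with 5-OH-TMT, DUOX1 ran from -0.10 to 0.032, CYBA from -0.0041 to 0.12 and SOD1 from -0.095 to 0.017, and with TNF-α, CYBA ran from -0.048 to 0.36. Depth limits DUOX2, DUOXA2, NOX1, NOXO1 and NOS2, which had between 6 and 118 reads over all 12 libraries. For NOXO1 and DUOXA2, exon overlap with a gene on the opposite strand may lower the count too, as strandedness is not given.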
